A study of Mus musculus with 4 samples.

Results

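The peaks described here were read, from their label alone, as lying in exons of noncoding transcripts of the mouse cerebral cortex. They are all entries of the authors' peak table with the annotation NP_exon, a class that the sources used here do not define. There were 1245 of them among 33977 peaks in all (3.66%), in 683 genes. The class was read from the table and not from the counts. By gene symbol, 769 peaks lay in 469 Gm models, which are predicted mouse genes without a given name, 241 in 120 Rik models, which go back to cDNA clones, and 74 in 40 genes known by a genomic clone or sequence symbol. The other 161 peaks lay in 54 genes with a name, such as Kcnq1ot1, Tug1 and Sox2ot.

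The study measured N6-methyladenosine (m6A) in RNA by immunoprecipitation with an anti-m6A antibody and sequencing (MeRIP-seq). Total RNA came from the cortex of mice in 2 groups, sham treatment and repetitive mild traumatic brain injury (rmTBI, written TBI in the labels), with 2 libraries in each, numbered 0 and 1. All 4 libraries carry the same antibody. The sources used here state no strain, age, injury protocol or time after injury. They do not say what the numbers 0 and 1 stand for, nor whether the libraries came from separate mice. P-values, SDs and SEs thus reflect the spread among these 4 libraries alone, which may be technical. If the numbers mark unlike kinds of library, that spread is not one among replicates. No library without the antibody was analysed here, so methylation and transcript abundance cannot be told apart in the counts. In bulk tissue, fewer cells of a type and less RNA per cell cannot be told apart.

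Long noncoding RNAs (lncRNAs) are transcripts without a long reading frame. Many act in the nucleus, as Kcnq1ot1 does in silencing imprinted genes around it, and others are transcribed against or beside a gene for a developmental transcription factor, as Sox2ot is around Sox2 and Dlx6os1 beside Dlx6. The m6A mark is placed on such RNAs by the METTL3 complex, as on messenger RNAs, mostly within a short motif whose commonest core is GGAC.

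A few stretches are shown to give an idea of what these peaks contain. No genome of the files' build was at hand, so peak sequence was read only where a RefSeq promoter window (GRCm38.p6, the stretch around a gene's start) covers the whole peak, which was so for 6 of the 1245. Shown are a peak at the start of Tug1, a lncRNA of the nucleus that was first found in retina, and a peak each in the Rik model 4933403L11Rik and the Gm model Gm42722. Each is given 5′ to 3′ on the strand of the peak, with every GGAC in capitals, and the windows are those of the neighbouring genes Morc2a, Gm13291 and Pifo.
Tug1, chr11:3649224-3649434, minus strand: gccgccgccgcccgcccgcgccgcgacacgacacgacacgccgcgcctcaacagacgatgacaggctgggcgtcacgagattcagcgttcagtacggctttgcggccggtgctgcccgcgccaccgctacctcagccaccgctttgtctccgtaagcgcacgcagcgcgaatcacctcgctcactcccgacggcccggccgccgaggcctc
4933403L11Rik, chr2:11384700-11384907, minus strand: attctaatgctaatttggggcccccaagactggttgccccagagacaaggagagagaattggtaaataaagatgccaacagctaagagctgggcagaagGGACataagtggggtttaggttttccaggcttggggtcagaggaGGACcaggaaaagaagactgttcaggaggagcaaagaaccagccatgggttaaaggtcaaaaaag
Gm42722, chr3:106001560-106001678, plus strand: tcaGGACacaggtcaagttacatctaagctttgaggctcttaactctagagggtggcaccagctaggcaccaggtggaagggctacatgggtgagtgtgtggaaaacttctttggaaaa
The Tug1 stretch held no GGAC on either strand, that of 4933403L11Rik held 2 and that of Gm42722 held 1, all on the strand of the peak. Among 32851 promoter windows cut to the same length, GGAC was present on the given strand in 52.2%, 51.7% and 34.4%. The Tug1 stretch held 5 and 10 counts in sham libraries 0 and 1 and 2 and 18 in rmTBI libraries 0 and 1, too few to be tested. At Gm42722 the level was 0.927 and 1.28 CPM (counts scaled to library depth by TMM) in sham and 1.29 and 2.23 CPM in rmTBI. The groups barely separated there, and the peak was not called.

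Some of the members are hosts of microRNAs, which are cut from a hairpin in a longer transcript and recognise targets through the seed, bases 2 to 8. A plus-strand peak in Gm28119 (chr9:41581966-41582224) began inside the hairpin of Mir125b-1, a microRNA abundant in neurons. The last arm of that hairpin lies within the peak and the first arm lies just before it. A pair of overlapping Sox2ot peaks ended inside the hairpin of Mir1897. The mature sequences follow, from RefSeq GRCm38.p6, with the seed in capitals, and no seed was shared among them.
mmu-miR-125b-5p: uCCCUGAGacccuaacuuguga
mmu-miR-125b-1-3p: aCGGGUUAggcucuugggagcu
mmu-miR-1897-3p: uCAACUCGuucuguccggugag
The Gm28119 peak held 73 and 118 counts in sham libraries 0 and 1 and 50 and 96 in rmTBI libraries 0 and 1. After scaling, both rmTBI libraries lay below both sham libraries there, and the peak was not called.

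Library totals over all peaks ran from 13753600 to 26888072 counts, and the libraries numbered 1 were the deeper ones in both groups. Noncoding exon peaks held a median of 59 and 106 counts in the sham libraries and 55 and 110 in the rmTBI libraries. They took 3.80% and 3.27% of the counts in sham libraries 0 and 1 (95% exact binomial intervals 3.79% to 3.81% and 3.26% to 3.28%, counting error only), and 3.93% and 3.32% in rmTBI libraries 0 and 1. The libraries numbered 0 had the larger share in both groups. The group means were 3.54% ± 0.375 in sham and 3.62% ± 0.435 in rmTBI (SD, n = 2 each; two-sided exact permutation p = 0.667, where 2 against 2 cannot go below 0.333). A peak spanned 238 bases at the median (58 to 483824), and 8.67% spanned over 1000 bases, against 36.0% of coding peaks.

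Few genes held most of the counts. The gene with the most, Gm37376, had 18.7% of all counts at noncoding exon peaks from a single peak, the first 5 genes had 55.3% and the first 10 had 66.1%. These are counts not divided by span, so they do not rank expression. They are also summed over all peaks of a gene, and reads in overlapping peaks are counted more than once. Gm37376 (chr19:5801940-5802393, plus strand) lies within the span of Malat1, an abundant nuclear lncRNA that is transcribed from the other strand. It took 0.633% and 0.696% of the counts of sham libraries 0 and 1 and 0.597% and 0.646% of rmTBI libraries 0 and 1. Gm14703 followed with 13.2% of the counts at noncoding exon peaks, from 5 peaks. Then came 6330415B21Rik within the alpha-catenin gene Ctnna2 with 8.94%, from 2 peaks. A single one of these, which overlaps a peak of the other condition's set, held 31764 of its 63357 counts in sham library 0. The Gm14703 peak of highest level overlaps the synaptic vesicle gene Syp, on the other strand, by 1019 bases. Rn7sk, the small nuclear RNA that holds back the elongation factor P-TEFb, had 8.62% from a stretch of 58 bases. Its counts were 62491 and 60376 in sham and 60902 and 61239 in rmTBI, nearly level although the libraries numbered 1 were deeper. After TMM scaling that was 4455 and 2208 CPM in sham and 4617 and 2203 CPM in rmTBI, so the libraries differed by number far more than by group.

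Peaks of this class were spread unevenly over the chromosomes. Chromosomes 1, 3, 5, 6, 7, 8 and 9 held 77.8% of them and 42.4% of the peaks of the other classes. Chromosome 7 had 237, which was 9.11% of its peaks, and chromosome 1 had 189 (7.91%), whereas chromosome 11 had 39 (1.61%) and chromosome 19 had 6 (0.595%). The Gm models carried most of this, with 84.1% of their peaks on those 7 chromosomes, against 69.3% for Rik models and 62.1% for named genes. Chromosome 11 had 1 peak in a Gm model and chromosome 1 had 146. The set of 7 chromosomes was chosen after the values were seen, and its cause was not tested.

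**Figure D1:**
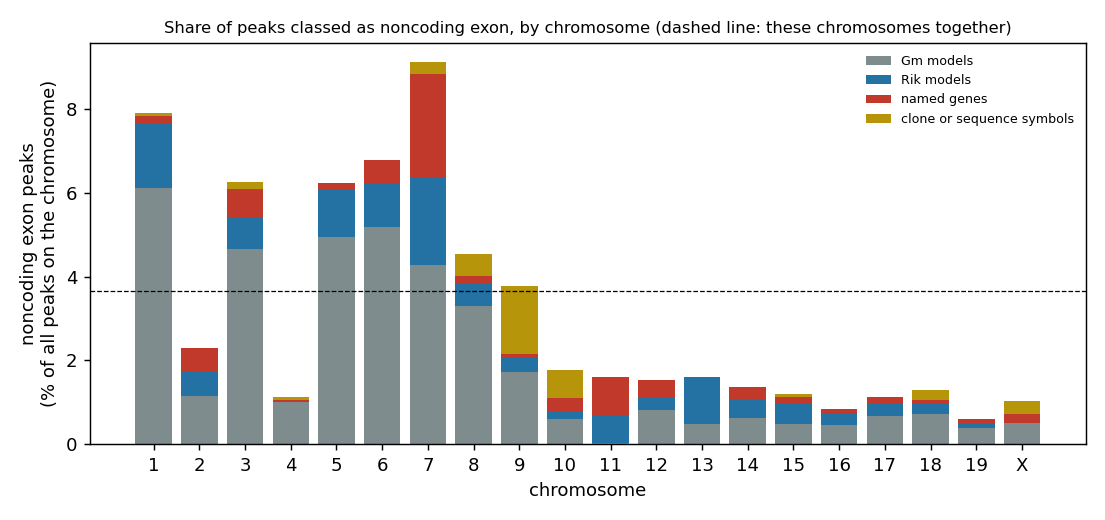
Noncoding exon peaks as a percent of all peaks on each chromosome (vertical axis), for chromosomes 1 to 19 and X, with bars stacked by symbol class and a dashed line at the share over the plotted chromosomes. Chromosome 7 stands at 9.11% and chromosome 1 at 7.91%, and the grey part of the bars, Gm models, is nearly absent on chromosome 11.

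By RefSeq, 364 of the peaks belonged to 155 lncRNA genes, 13 to 9 protein-coding genes, and 848 to 511 symbols without a match. Many overlapped the span of a protein-coding gene other than their own, in whole or in part. The peak's strand was that of the coding gene for 507 peaks (40.7%) and the other strand for 305 (24.5%). The strand of the coding gene was not known for 91, and 342 (27.5%) lay outside every protein-coding span. Gm models overlapped a coding gene on the same strand in 52.5% of cases, Rik models in 24.1% and named genes in 9.32%. Of 289 members whose own gene had a known strand, 18 (6.23%) lay on the other strand. A coding or UTR peak on either strand overlapped 81 of the 1245 (6.51%).

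The counts did not separate strands where this could be checked. Over all classes there were 166 pairs of peaks on opposite strands that overlapped by at least 90% of each, spanned up to 1000 bases and held at least 100 counts, and in 162 of them (97.6%) the counts agreed within 10%. Of 5 such pairs with a noncoding exon peak all 5 did. Each joined peaks of the same gene symbol, RP24-298N7.11, Gm43046 or 2610203C22Rik, so none set an antisense gene against its partner. At 2610203C22Rik, for example, the minus-strand peak held 7109 counts over the 4 libraries and the plus-strand peak 7037. Reads of an antisense gene and of its partner therefore cannot be told apart in these counts.

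The study asked which lncRNAs carry a different m6A signal after rmTBI. In edgeR's model of group alone, the Gm20635 locus was the only one called among these peaks, and it was lower in rmTBI. Gm20635 is a lncRNA gene of chromosome 5 whose end reaches over the end of Grid2ip, a gene for a scaffold of a glutamate receptor. Its sham-set peak (chr5:143391656-143403718, minus strand) held 42.6 and 42.0 CPM in sham libraries 0 and 1 and 8.11 and 7.27 CPM in rmTBI libraries 0 and 1. The groups did not overlap, and the libraries within a group were close. The log2 fold change of rmTBI over sham was -2.46 with an SE of 0.26. Its adjusted p was 0.0437 in edgeR's quasi-likelihood F-test after Benjamini-Hochberg correction over 33415 peaks. The rmTBI-set peak of the same gene, which covers nearly the same bases and shares its reads, was the other of 2 called among 1201 tested. Over all peaks tested 0.0868% were called, 29 in number and all lower.

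The call was lost with library-size scaling and with at least 10 counts in every library. It was kept with no filter on low counts. The log2 at Gm20635 was -2.46 as reported and -2.47 under both settings that lost the call. The adjusted p of edgeR at Gm20635 was 0.0901 with library-size scaling and 0.0867 with at least 10 counts in every library. Under these, edgeR called 0 of these peaks, with 28 and 21 at an unadjusted p under 0.05. DESeq2 on group alone called 4 (0.321%, against 0.386% of all peaks), at Gm20635, Gm43287 and Gm43398. Over all alternatives that left the library number out of the model, the adjusted p at Gm20635 ran from 2.68e-10 with DESeq2 to 0.0901. With 1 library left out the count was larger, as it was over all peaks (82 to 122 called, against 29 with all libraries). It was 4 without sham library 0 or without rmTBI library 1, where Gm43398 and Gm43287 joined Gm20635, and 5 without sham library 1 or without rmTBI library 0, where Prox1os was added.

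Gm43398 (chr5:143395502-143395682) lies inside the span of Gm20635 on the other strand. As the counts did not separate strands where this could be checked, its reads may also be counted at Gm20635. It held 80 and 234 counts in sham libraries 0 and 1 and 4 and 24 in rmTBI libraries 0 and 1, a log2 fold change of -3.47 with an SE of 0.47. Its adjusted p by the same edgeR test was 0.0838. Both rmTBI libraries lay below both sham libraries.

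The next members by p, none of them called in that edgeR fit, included noncoding exons in or against genes for transcription factors of the developing diencephalon. Ppnr lies within Tcf7l2, a Wnt pathway factor of thalamic neurons, and held 6.63 and 6.25 CPM in sham and 2.12 and 2.09 CPM in rmTBI (log2 -1.61, SE 0.29). At the Tcf7l2 peak with the most counts the values were 171 and 130 CPM in sham and 19.9 and 15.5 CPM in rmTBI. Both rmTBI libraries lay below both sham libraries in the member and in the gene around it, with a log2 difference nearer to 0 in Ppnr. Prox1os is transcribed against Prox1, a homeobox gene of thalamic and hippocampal neurons. Its peak held 21.3 and 13.8 CPM in sham and 9.10 and 4.53 CPM in rmTBI (log2 -1.38, SE 0.39), and the 8 coding and UTR peaks of Prox1 had a median log2 of -1.78. D130058E05Rik, which RefSeq lists as a synonym of the thalamic homeobox gene Gbx2, held 17 and 37 counts in sham and 2 and 3 in rmTBI (log2 -3.32, SE 0.78). Gm42449 lies within Lef1, another Wnt pathway factor, and held 34 and 29 counts in sham and 8 and 10 in rmTBI (log2 -1.87, SE 0.69). In each of these the groups did not overlap after scaling, which picking by smallest p favours.

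Outside those genes, Gm43287 lies within Synpo2, which encodes an actin-binding protein. It held 56 and 59 counts in sham and 4 and 1 in rmTBI (log2 -4.46, SE 0.84), and the 7 coding and UTR peaks of Synpo2 had a median of -3.42. Gm13629 lies against the sodium channel gene Scn9a and held 154 and 390 counts in sham and 57 and 155 in rmTBI (log2 -1.34, SE 0.29). Gm6556 (log2 -2.02) and RP23-342N3.1, within the anillin gene Anln (log2 -1.15), completed the 10 of smallest p among the lower members. Neither rmTBI library reached the lower sham library in any of the 10. They were picked by p from the same libraries, so this separation is not separate evidence. Over all members it was seen in 126 (10.5%), against 12.3% of all peaks.

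Levels of cell type markers moved beside these members. The summed CPM of thalamic markers was 289 and 307 in sham and 40.1 and 36.2 in rmTBI. All 5 of the 7 that had a peak were lower (median log2 -2.80), with no peak for Prkcd or Lef1 analysed here. This list includes Tcf7l2 and Gbx2, named above with their members, so the markers and those members are in part the same genes. The striatal markers were also lower, 6 of 6, with 390 and 394 CPM in sham and 194 and 187 CPM in rmTBI. Cortical excitatory markers were higher, 7 of 7, with 306 and 390 CPM in sham and 437 and 539 CPM in rmTBI. Those of oligodendrocytes were at 436 and 430 CPM in sham and 332 and 295 CPM in rmTBI, lower in 4 of 4 with a peak. Choroid plexus and ependymal markers were at 29.7 and 32.3 CPM in sham and 8.04 and 8.78 CPM in rmTBI, lower in 2 of 3 (median log2 -1.85), with no peak for Ttr or Folr1 analysed here. The other lists had medians nearer to 0. These were neurons (0.05), astrocytes (0.03), interneurons (-0.00011), blood cells and vessels (-0.048) and microglia (0.12). The summed CPM of interneuron markers was nonetheless 125 and 119 in sham and 166 and 164 in rmTBI, with 2 markers higher and 2 lower. No peak for Gad1 or Pvalb was analysed here. The part of all these markers in the values of the noncoding exon peaks was not tested.

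**Figure D2:**
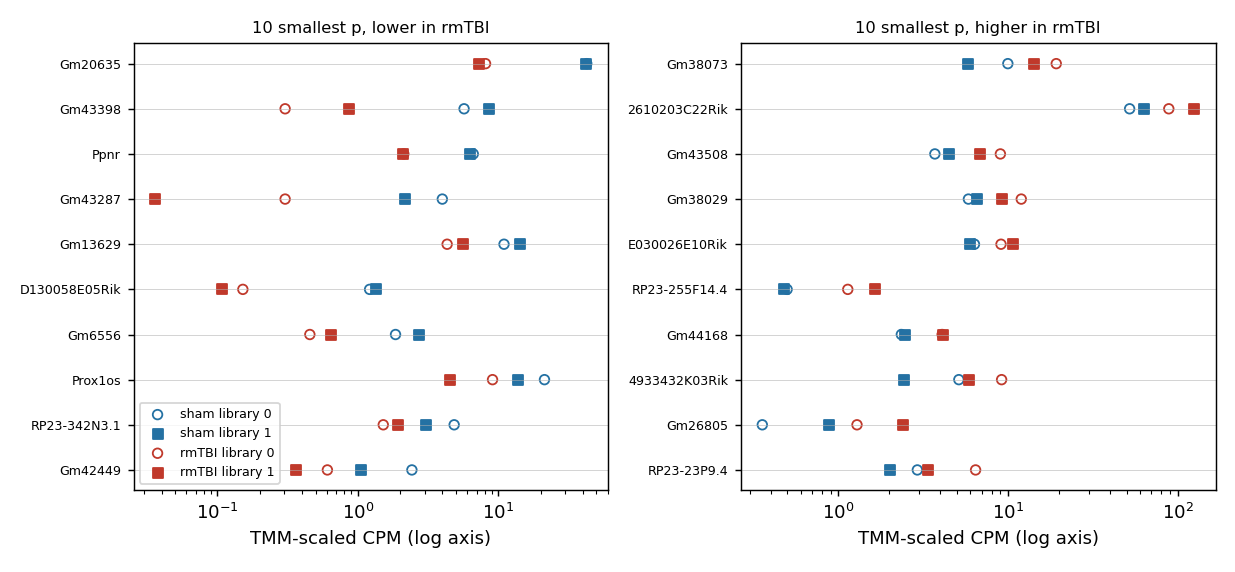
TMM-scaled CPM on a log axis in each of the 4 libraries for the 10 noncoding exon peaks of smallest p in each direction, 1 peak per gene, with sham in blue, rmTBI in red, open circles for library 0 and squares for library 1. The groups are separate in all 20, which picking by smallest p favours, and the gap is widest at Gm43287, Gm43398, Gm20635 and D130058E05Rik.

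On the higher side no member was called by edgeR or by DESeq2 in the model of group alone, and the fold changes were smaller. 2610203C22Rik, a lncRNA beside the Vxn gene, held 52.1 and 63.7 CPM in sham and 88.7 and 125 CPM in rmTBI (log2 0.88, SE 0.27). Gm38073, within the potassium channel subunit gene Dpp10, held 9.98 and 5.85 CPM in sham and 19.3 and 14.3 CPM in rmTBI (log2 1.09, SE 0.33), while the 2 peaks of Dpp10 had a median of 0.17. Gm43508 and E030026E10Rik both lie within Ldb2, which encodes a cofactor of LIM-domain factors, with log2 values of 0.93 and 0.69. 4933432K03Rik lies against the heparan sulfate enzyme gene Hs3st2, with a log2 of 1.01 and a median of 0.91 over the 4 peaks of Hs3st2. The other 5 of smallest p were Gm38029 in Egfem1 (0.77), RP23-255F14.4 (1.53), Gm44168 (0.76), Gm26805 (1.53) and RP23-23P9.4 against Kmt2a (0.99).

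**Figure D3:**
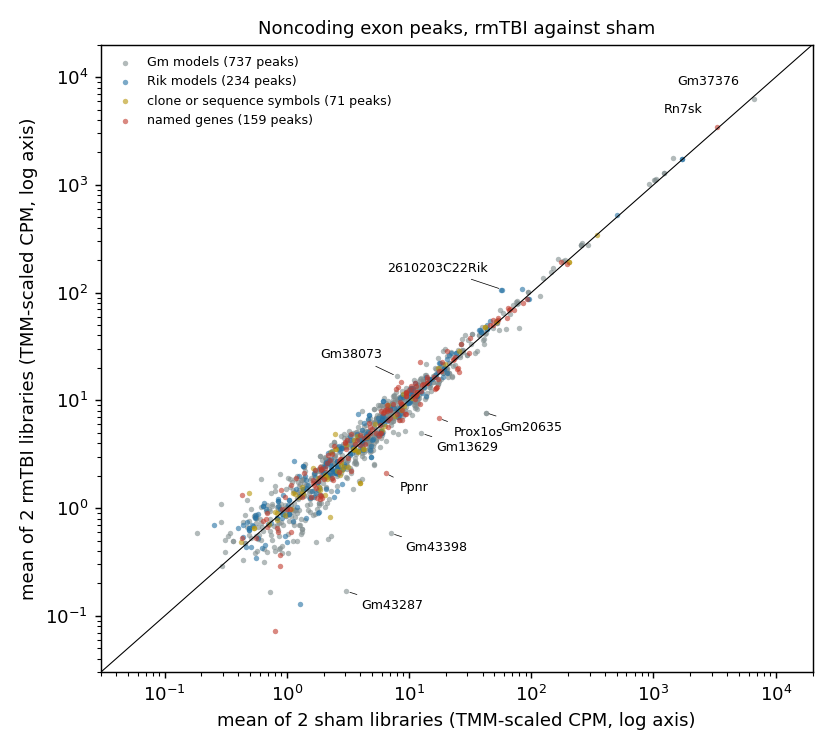
Mean TMM-scaled CPM of the 2 rmTBI libraries (vertical) against that of the 2 sham libraries (horizontal), both on log axes, for 1201 tested noncoding exon peaks coloured by symbol class, with the line of equal levels. Most peaks lie along the line, Gm20635, Gm43398 and Gm43287 lie well below it, and Gm37376 and Rn7sk are at the upper end on it.

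Taken over all members, the group difference was small. At an unadjusted p under 0.05 there were 31 (2.58%), against 2.84% of all peaks tested, with 13 higher (all peaks 0.73%) and 18 lower (2.11%). Both rmTBI libraries lay above both sham libraries in 200 members (16.7%, against 12.3% of all peaks) and below them in 126 (10.5%, against 12.3%). The median log2 fold change was 0.06, with 701 higher and 500 lower, against 0.02 over all peaks. It was 0.07 in named genes, Gm models and Rik models alike and -0.01 among the clone symbols. Without rmTBI library 0 the median over the members was -0.0034, so its sign rested on that library. Without sham library 1 or without rmTBI library 0 the median of the Gm models was -0.011 or -0.049.

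Of 95 lncRNA genes in lists of known function, 13 had a peak in this class, 98 peaks in all, of which 96 could be tested and none was called in the model of group alone (64 higher, 32 lower, median log2 0.07). The edgeR quasi-likelihood test gave none of the 96 an unadjusted p under 0.05, and DESeq2 with the same model called none of them. Imprinted and X-inactivation lncRNAs were the largest group, with 6 of 15 genes (Kcnq1ot1, Snhg14, Rian, Peg13, Airn and Tsix), 51 peaks higher and 16 lower and a median of 0.13. Kcnq1ot1 supplied 55 of these 67 peaks. Without it, a split made after its values were seen, the other 12 tested peaks were 6 higher and 6 lower, with a median of 0.0013. Nuclear and housekeeping lncRNAs were present with Tug1, Dleu2 and Norad (listed as 2900097C17Rik), 5 higher and 9 lower, median -0.25. Antisense and divergent lncRNAs of developmental genes were present with Dlx6os1, Sox2ot and Six3os1, 7 higher and 7 lower. Of 28 hosts of small RNAs, Mir99ahg alone had a peak here.

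Kcnq1ot1, the antisense transcript that silences its imprinted cluster, had the most peaks, 55 in 31 overlap clusters over chr7:143215753-143295529, because peaks of the rmTBI and sham sets overlap. Of these, 45 were higher in rmTBI and 10 lower, with a median log2 of 0.17 and a range of -0.25 to 0.54. At its peak with the most counts the levels were 53.0 and 75.5 CPM in sham and 60.9 and 84.2 CPM in rmTBI, so the groups overlapped. Without sham library 0 or without rmTBI library 1 the log2 at that peak turned to -0.070 or -0.080. Library 1 was above library 0 in both groups. Other peaks of the same transcript went the other way with the library number, from -0.63 to 0.74 in log2, with 7 called higher and 2 called lower in the libraries numbered 1.

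**Figure D4:**
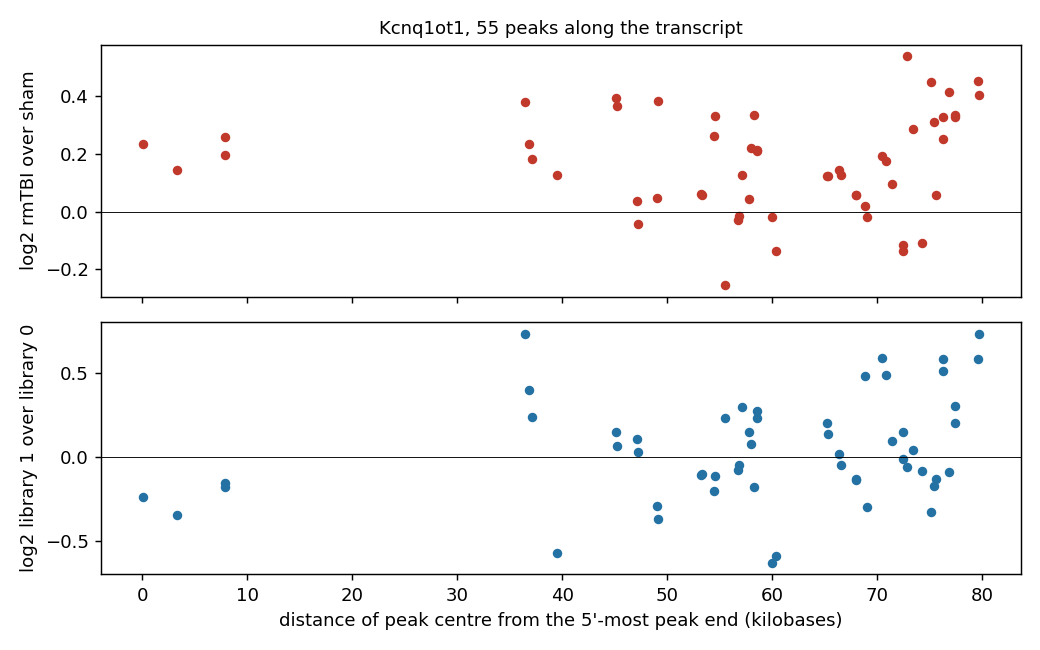
Log2 difference at each of the 55 Kcnq1ot1 peaks against the distance of the peak centre from the 5′-most peak end in kilobases, for rmTBI over sham (upper panel) and for library 1 over library 0 (lower panel). The upper values run from -0.25 to 0.54 with 45 above 0, and the lower values run from -0.63 to 0.74 on both sides of 0.

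The other genes with many peaks each leaned one way without a call in that model. 9330162G02Rik, in the region of Ube3a on chromosome 7, had 17 peaks, all higher, with log2 from 0.06 to 0.36, although its leading peak turned to -0.15 without sham library 0 and to -0.13 without rmTBI library 1. Tug1 had 12, of which 11 were tested and 9 were lower (median -0.30, range -0.54 to 0.07). At its peak with the most counts Tug1 held 16.8 and 16.3 CPM in sham and 12.1 and 14.1 CPM in rmTBI, with both rmTBI libraries below both sham libraries. Gm18310, at the Hddc3 gene, had 9 peaks, all lower (median -0.49). Sox2ot had 9, of which 6 were lower, and the longest of them, spanning 92360 bases, was the highest at 0.87. Dlx6os1, a lncRNA of inhibitory neurons, had 4 peaks, all higher. Its leading peak held 88 and 294 counts in sham and 158 and 486 in rmTBI (log2 0.78, SE 0.34), with the groups separate after scaling. Overlapping peaks of a gene share reads, so these counts of peaks are not counts of independent measurements.

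Members overlapping a protein-coding gene tended to differ between the groups as that gene did. Any overlap counted, so that Gm20635 was set against Grid2ip on 124 bases and Prox1os against Prox1 on 533. With 1 peak per noncoding gene and at least 10 counts in every library, 378 genes could be compared. Each was set against the median of the coding and UTR peaks of the gene it overlapped. Pearson's r of the 2 log2 fold changes was 0.65 and Spearman's rho 0.55, as a description across genes that share the same 4 libraries and in part the same host. For 251 on the same strand r was 0.65 and for 122 on the opposite strand it was also 0.65. The sign was the same in 266 (70.4%), and the median absolute difference was 0.15. For the difference between libraries numbered 1 and 0 the same pairs gave an r of 0.00.

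**Figure D5:**
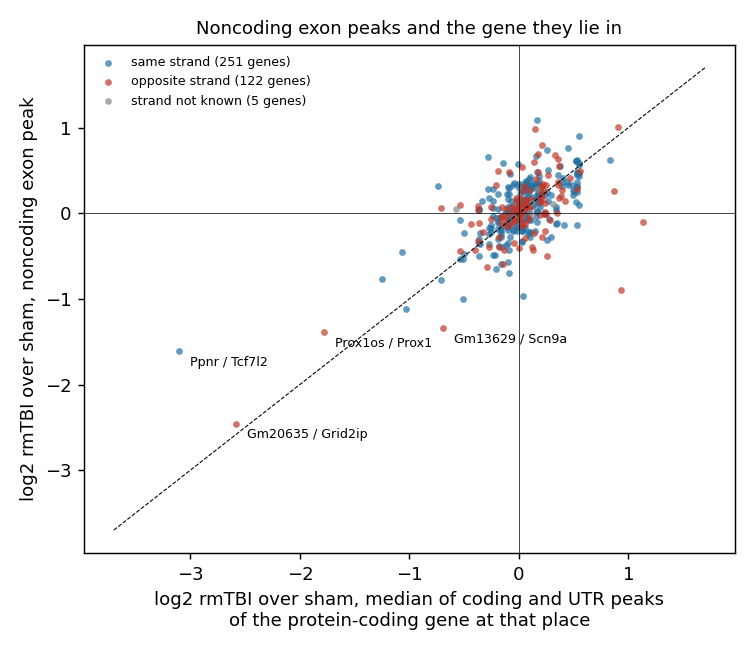
Log2 fold change of rmTBI over sham at 1 noncoding exon peak per gene (vertical) against the median over the coding and UTR peaks of the protein-coding gene at that place (horizontal), for 378 genes coloured by relative strand, with the line of equality dashed. Gm20635, Prox1os, Ppnr and Gm13629 lie at the lower left, and Ppnr lies well above the line.

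The difference between library numbers was larger than that between groups. In a model of group and number, edgeR's quasi-likelihood F-test after Benjamini-Hochberg correction called 110 members higher in the libraries numbered 1 (9.16%, against 17.1% of all peaks) and 249 lower (20.7%, against 21.1%). With library-size scaling the split was 143 higher and 193 lower. The group calls given above came from a model without number, so these counts are from unlike models. With number alone in the model, 141 members were called (11.7%, against 16.4% of all peaks), and with group alone 2 (0.167%, against 0.0868%). The sources used here do not say what the numbers stand for, and depth differed with them in the same way in both groups. The median log2 of number 1 over number 0 was -0.06 over the members, -0.13 in Gm models, 0.18 in Rik models and -0.04 in named genes. Members outside protein-coding spans had a median of 0.26 and those overlapping one on the same strand -0.24.

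Named RNAs showed this in both directions. Snhg14, the host transcript of small nucleolar RNAs that silences Ube3a in neurons, held 98.4 and 36.3 CPM in sham libraries 0 and 1 and 106 and 35.3 CPM in rmTBI libraries 0 and 1 (log2 -1.52, SE 0.07). Scarna2, a guide RNA of Cajal bodies, held 90.9 and 52.8 CPM in sham and 84.1 and 52.5 CPM in rmTBI (-0.73). Chn1os3, Grin1os and Ift88os, which are named as opposite-strand transcripts of Chn1, Grin1 and Ift88, were lower in libraries 1 as well (-0.79, -0.68 and -0.77). The Grin1os and Ift88os peaks, however, carry the strand of Grin1 and Ift88. In contrast, the leading peak of Rian, a lncRNA of the Dlk1-Dio3 imprinted region, held 17.1 and 29.7 CPM in sham and 18.8 and 29.5 CPM in rmTBI (0.72). Of the 3 Rian peaks, 2 were called higher in libraries 1 and 1 was called lower (-0.73). The leading peak of Peg13, within Trappc9, held 167 and 227 CPM in sham and 154 and 215 CPM in rmTBI (0.46). Its other peak went the other way (-0.34) and was not called. The mitochondrial transfer RNA mt-Te was also higher in libraries 1 (0.61). At the leading peaks of Snhg14, Scarna2, Rian and Peg13 the libraries of a number lay closer to each other across the groups than the 2 numbers did within a group.

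Among 623 members with at least 50 counts in every library, the farthest apart by number was A230085B16Rik, within the neuronal membrane protein gene Gpm6a. It held 893 and 371 counts in sham libraries 0 and 1 and 933 and 411 in rmTBI libraries 0 and 1 (log2 -2.24, SE 0.09). Gm36989, 4930599N24Rik, Gm7265 and RP24-282C4.10 followed, from -1.70 to -1.53. At the other end was Gm45449, against Rnf150, with 138 and 764 counts in sham and 115 and 761 in rmTBI (1.58, SE 0.13). Dlx6os1 came next at 1.15, then Gm37694 (0.92), 9530085L11Rik (0.80) and Gm37928 (0.77).

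The authors deposited their own lists of differing peaks. Of these members, 12 were in the higher list (0.964%, against 0.815% of all peaks) and 11 in the lower list (0.884%, against 0.43%), in 19 genes. In the authors' deposited table none of the 23 had an adjusted p under 0.05, and in the fit of rmTBI against sham none had an unadjusted p under 0.05. Airn, which silences the paternal copies of Igf2r and its neighbours, was in the higher list of the authors' deposited table, with 35 and 36 counts in sham libraries 0 and 1 and 11 and 49 in rmTBI libraries 0 and 1. A Tug1 peak with 33 and 41 counts in sham and 7 and 55 in rmTBI was in it too. In both, the rmTBI libraries lay on either side of the sham libraries in raw count, which is not scaled to library depth. After TMM scaling, rmTBI library 0 lay below both sham libraries at both peaks, and rmTBI library 1 lay between the sham libraries. Over the members the log2 value in the authors' deposited table went with a ratio of ratios, library 1 over library 0 in rmTBI divided by the same in sham (r = 0.99 across peaks). Against the ratio of group means r was 0.17. The largest deposited values were those of Gm43292 (5.20) and Gm2415 (3.93) in the higher list and of Gm6658 (-3.40) and 2600014E21Rik (-3.39) in the lower list of the authors' deposited table, and 13 of the 23 had a library with fewer than 10 counts.

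The table stacks peaks called in rmTBI (579 of the members) and in sham (666). Of the members, 685 (55.0%) overlapped a peak of the other set by at least 1 base on the same strand. The share was 70.4% for coding peaks, 67.1% for 3′ UTR peaks and 51.8% for 5′ UTR peaks. It was 57.1% in named genes, 52.8% in Gm models and 58.1% in Rik models. Kcnq1ot1 stood above these, with 44 of 55, and both Gm20635 peaks overlapped each other, whereas Gm43398, Ppnr, Gm43287 and Prox1os each had a peak in the sham set alone.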

How the data were processed

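Anti-m6A libraries of mouse cortex were compared, 2 sham and 2 rmTBI, grouped by the labels. The authors deposited a table of peaks with raw read counts per library, and per peak a log2 value with its p-value, raw and adjusted. Per the submitters' processing notes, STAR, DESeq2 and GRCm39 were used, with no versions or roles. The sources used here name neither the peak caller nor the counter. Coordinates are those of the deposited table and were read as GRCm38, since 355 of 397 members with a RefSeq GRCm38.p6 span (89.4%) overlapped it.

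All 33977 peaks were fitted and only the noncoding exon peaks are described. The count test was that of edgeR 4.0.16, run under R 4.3.3 (TMM, filterByExpr, quasi-likelihood F-test on group, Benjamini-Hochberg over 33415 peaks, adjusted p under 0.05), on 2 residual degrees of freedom, and for library number on 1. The SE is the log2 fold change over the root of F. Levels are CPM as scaled by edgeR. Permutation tests used SciPy 1.17.1. The fit was checked on simulated data.

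The text names the called members, the 10 of smallest p in each direction, those of highest level (12 named genes, 5 Gm and 5 Rik models, of which not all are printed), listed lncRNAs, those in the authors' lists, the 5 farthest apart by number in each direction and the 5 genes with most peaks. Members and lists were chosen with earlier results of these data known. After the values were seen, symbols starting RP23-, RP24- or CAAA were moved from the named genes to the clone symbols. The limits for strand pairs and for the comparison with overlapped genes were also set then. Overlapping and antisense genes are uncertain. Alternatives were library-size scaling, DESeq2 1.42.0, other count filters, the replicate block, 1 peak per overlap cluster and leaving out each library.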

Additional observations from a re-analysis of the deposited data

How the results depend on the processing

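The number of noncoding exon peaks called for rmTBI against sham was 2, and it depended on nearly every choice. It was 0 with library-size scaling, 0 with at least 10 counts in every library, 1 with 1 peak per overlap cluster and 4 with DESeq2. With no filter on low counts it stayed at 2, both at Gm20635. Leaving out 1 library gave 4 to 5, all lower (0.322% to 0.418% of members, against 0.247% to 0.368% of all peaks). The labels do not say that the numbers pair the libraries, and with 2 pairs the deviations correlated at r = 0.45 across peaks. The fit with the replicate block called 98 members, 63 higher and 35 lower, which is 8.16% of those tested against 10.6% of all peaks, and both Gm20635 peaks were among them. The cause of these changes was not tested. For library number the count was 359 and became 148 with DESeq2, 219 with 1 peak per overlap cluster and 141 with no replicate block, which here leaves out the group. Leaving out a library was not run for that contrast, since no residual degrees of freedom remain. With a library left out, the median log2 of rmTBI over sham ranged from -0.0034 to 0.10 over all members, from -0.049 to 0.12 in Gm models, from 0.028 to 0.21 in Rik models and from 0.05 to 0.13 in named genes. The spread used to judge these medians, the SD over the 4 sham and rmTBI library pairs, was set after a first run. At the leading peak the sign turned without 1 library for 2900097C17Rik (-0.11 to 0.21), 9330162G02Rik (-0.15 to 0.30), Kcnq1ot1 (-0.080 to 0.45), Peg13 (-0.36 to 0.14), Rian (-0.32 to 0.50) and Snhg14 (-0.94 to 0.95). The share of members overlapping the other set was 50.04% when at least 50% of the peak had to overlap and 60.2% with at least 10 counts in every library. The authors' lists held 23 members and 0 of them at a deposited adjusted p under 0.05. The difference in the share of counts and the medians moved by less than their spread under the other alternatives, among them 2 chosen after seeing the data (clone symbols kept among the named genes, and members outside protein-coding spans). The median peak held 55 to 110 counts per library.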
